A study of Mus musculus with 41 samples.

Results

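The trimethylation of lysine 9 of histone H3, H3K9me3, was mapped by chromatin immunoprecipitation and sequencing in chondrocytes of the mouse embryo, and its distribution over the autosomes was set side by side for proliferating chondrocytes (PC) and for hypertrophic ones (HC). All libraries of this mark were taken, which gave 5 of the 41 samples of the series, namely PC replicates 2, 3 and 6 and HC replicates 2 and 5. Their region lists hold 450137 of the 1848404 regions in the 30 lists of all marks, and 401385 of these lie on the 19 autosomes. The submitters' 2 intersected lists of the mark, 22499 regions for PC and 18533 for HC, were described beside them. PC were sorted from cartilage of E13.5 embryos that carried the driver Tg(Col2a1-cre)1Star, and HC from cartilage of E15.5 embryos that carried the driver Tg(Col10a1-cre)1427Vdm. All carried the reporter allele Gt(ROSA)26Sortm1(EYFP)Cos. A Cre recombinase under type II collagen sequences thus switched on the yellow reporter in PC and a Cre under type X collagen sequences did so in HC. PC replicate 6 stands apart by its many narrow regions and HC replicate 2 by its coverage of gene-poor stretches of chromosomes 1 and 15. Results that rest on them are also given without them where this was computed. Cell type, age and transgenic line changed together and cannot be told apart. The labels do not say whether the replicates came from separate litters, so the p-values measure the spread between these libraries only.

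H3K9me3 is the mark of constitutive heterochromatin. It is laid down by the methyltransferases Suv39h1, Suv39h2 and Setdb1 and read by proteins of the HP1 family, and it lies over satellite and transposon sequence. Among genes it is known from the large clusters of zinc finger genes, where it covers the exons that code for the fingers, from protocadherin and chemosensory receptor clusters, and from the silent allele of imprinted genes. Hypertrophic chondrocytes are the enlarged, postmitotic cells that proliferating chondrocytes become before bone replaces cartilage.

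A promoter window is the stretch from 250 bases before to 50 bases after a RefSeq transcription start, 300 bases in all. Such windows were available for 16456 of the 20661 autosomal protein-coding genes and numbered 20084. A window counts as covered when at least 50% of it lies in H3K9me3 regions. By this measure 408 windows (2.03%) were covered in all 5 libraries and 16048 (79.9%) in none. In all 3 PC libraries and in neither HC library 119 windows were covered, which is 0.593% of all windows, and 48 windows, or 0.239%, were covered in both HC libraries and in no PC library. The sequences below show these classes in the build GRCm38.p6 (mm10) from RefSeq, 5′ to 3′ on the strand of the gene. Capitals mark the dinucleotide CG, the site of DNA methylation in mammals. These examples were chosen after their values were seen.

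The first 3 windows were covered in full in each PC library and by at most 9.33% in an HC library. They belong to Cldn7, a claudin of epithelial tight junctions (chr11:69965171-69965470, plus strand), Epcam, an epithelial adhesion molecule (chr17:87635729-87636028, plus strand), and Mt2, a metallothionein that binds zinc and copper (chr8:94172368-94172667, plus strand).
Cldn7: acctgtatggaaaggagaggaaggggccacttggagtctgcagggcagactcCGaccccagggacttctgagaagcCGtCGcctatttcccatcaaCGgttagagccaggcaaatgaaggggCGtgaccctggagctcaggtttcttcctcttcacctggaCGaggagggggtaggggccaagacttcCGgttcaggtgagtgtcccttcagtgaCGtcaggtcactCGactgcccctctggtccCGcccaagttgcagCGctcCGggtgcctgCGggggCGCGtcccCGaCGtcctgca
Epcam: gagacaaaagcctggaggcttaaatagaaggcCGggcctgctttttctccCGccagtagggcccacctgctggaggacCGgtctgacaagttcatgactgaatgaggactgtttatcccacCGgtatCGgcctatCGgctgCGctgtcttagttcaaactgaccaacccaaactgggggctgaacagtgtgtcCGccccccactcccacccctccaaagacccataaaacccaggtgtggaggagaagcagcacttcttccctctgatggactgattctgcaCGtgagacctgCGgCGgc
Mt2: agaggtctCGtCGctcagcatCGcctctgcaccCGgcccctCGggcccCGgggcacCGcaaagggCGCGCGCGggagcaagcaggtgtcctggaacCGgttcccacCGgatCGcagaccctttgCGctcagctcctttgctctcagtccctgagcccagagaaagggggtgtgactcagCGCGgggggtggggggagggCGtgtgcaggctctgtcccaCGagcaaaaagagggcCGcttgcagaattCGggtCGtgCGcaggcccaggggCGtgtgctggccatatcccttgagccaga

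The next 5 windows were at 0% in each PC library and at 93.7% or more in both HC libraries. They belong to the homeobox gene Hoxa2 (chr6:52164782-52165081, minus strand), Nkx3-2, a homeobox repressor of chondrocyte maturation (chr5:41764171-41764470, minus strand), Zic1, a zinc finger factor of neural and somite development (chr9:91365719-91366018, minus strand), Col10a1, the type X collagen gene of hypertrophic cartilage (chr10:34389731-34390030, plus strand), and the olfactory receptor gene Olfr714 (chr7:107073580-107073879, plus strand).
Hoxa2: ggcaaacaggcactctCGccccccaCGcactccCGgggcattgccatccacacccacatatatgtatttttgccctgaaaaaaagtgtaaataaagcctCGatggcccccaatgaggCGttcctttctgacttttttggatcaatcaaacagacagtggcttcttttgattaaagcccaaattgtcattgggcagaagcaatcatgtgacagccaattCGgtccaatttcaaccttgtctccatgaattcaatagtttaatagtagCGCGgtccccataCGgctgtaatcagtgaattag
Nkx3-2: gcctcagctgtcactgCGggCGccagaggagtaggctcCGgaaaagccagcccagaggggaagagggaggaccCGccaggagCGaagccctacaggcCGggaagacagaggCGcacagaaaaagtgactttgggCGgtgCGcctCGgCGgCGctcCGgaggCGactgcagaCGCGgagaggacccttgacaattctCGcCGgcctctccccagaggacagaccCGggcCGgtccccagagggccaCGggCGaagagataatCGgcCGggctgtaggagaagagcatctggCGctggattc
Zic1: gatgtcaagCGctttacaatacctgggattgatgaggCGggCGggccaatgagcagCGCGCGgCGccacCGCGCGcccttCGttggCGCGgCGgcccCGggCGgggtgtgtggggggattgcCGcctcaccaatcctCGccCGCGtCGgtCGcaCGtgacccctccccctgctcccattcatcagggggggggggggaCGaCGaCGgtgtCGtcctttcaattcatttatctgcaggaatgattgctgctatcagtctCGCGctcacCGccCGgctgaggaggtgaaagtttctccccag
Col10a1: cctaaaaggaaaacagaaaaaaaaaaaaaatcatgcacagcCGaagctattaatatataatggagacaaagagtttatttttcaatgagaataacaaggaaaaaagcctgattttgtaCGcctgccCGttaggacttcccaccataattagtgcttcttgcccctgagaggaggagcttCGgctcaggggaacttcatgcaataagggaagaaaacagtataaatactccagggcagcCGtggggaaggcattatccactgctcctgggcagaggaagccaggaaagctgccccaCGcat
Olfr714: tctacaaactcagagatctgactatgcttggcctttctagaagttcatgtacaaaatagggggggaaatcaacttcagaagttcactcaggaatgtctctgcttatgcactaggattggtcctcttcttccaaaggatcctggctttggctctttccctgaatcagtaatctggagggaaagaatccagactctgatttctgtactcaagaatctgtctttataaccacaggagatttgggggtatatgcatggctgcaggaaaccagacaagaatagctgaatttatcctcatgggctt

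The last 2 windows were covered in full in all 5 libraries. They belong to Olig2, a factor of oligodendrocytes and motor neurons (chr16:91225300-91225599, plus strand), and Hoxd10, a 5′ gene of the HoxD cluster (chr2:74691641-74691940, plus strand).
Olig2: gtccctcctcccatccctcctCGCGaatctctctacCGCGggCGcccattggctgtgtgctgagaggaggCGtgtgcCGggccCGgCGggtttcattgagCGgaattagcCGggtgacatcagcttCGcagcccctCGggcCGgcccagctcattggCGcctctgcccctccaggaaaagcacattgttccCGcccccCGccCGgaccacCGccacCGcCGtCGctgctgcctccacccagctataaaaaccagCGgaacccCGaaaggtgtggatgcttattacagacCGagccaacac
Hoxd10: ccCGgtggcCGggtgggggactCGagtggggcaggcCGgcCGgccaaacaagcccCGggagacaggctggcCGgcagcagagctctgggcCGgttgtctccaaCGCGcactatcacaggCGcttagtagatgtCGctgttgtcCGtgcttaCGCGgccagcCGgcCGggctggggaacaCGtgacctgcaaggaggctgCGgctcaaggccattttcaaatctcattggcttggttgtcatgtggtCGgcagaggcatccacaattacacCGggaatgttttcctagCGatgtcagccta

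The CG content of the classes differed with all 5 libraries and depended on single libraries. The median window held 14 CG among the PC-only windows and 14 among all windows, and 2.5 among the HC-only windows. At least 10 CG were present in 72 of 119 PC-only windows (60.5%), 10 of 48 HC-only windows (20.8%) and 11633 of 20084 windows in all (57.9%). CG reads the same on both strands. Olfactory and vomeronasal receptor genes made up 18 of the 48 HC-only windows (37.5%), 18 of the 119 PC-only windows (15.1%) and 1265 of all windows (6.30%). Without HC replicate 2 the medians were 10.5 CG in PC-only and 9.5 in HC-only windows. Without PC replicate 6 they were 9 and 5, and at least 10 CG were present in 49.5% and 38% of the windows. Leaving out either library thus narrowed the gap. Covered windows in HC replicate 2 had a median of 3 CG, against 11 in HC replicate 5 and 6, 10 and 17 in PC replicates 2, 3 and 6.

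Further PC-only windows were those of Cldn6, a claudin, Crb3, an apical polarity protein, and Ap1m2, an adaptor of epithelial protein sorting. Others were those of Wnt2 and Wnt10b, secreted Wnt ligands, Msx2, a homeobox factor of skeletal development, and the transcriptional repressor Hic1. Among the HC-only windows were Hoxb8, Foxd1, a forkhead factor, Nr2f1, an orphan nuclear receptor, Lef1, a DNA-binding partner of beta-catenin, and Erbb4, a receptor tyrosine kinase. These genes were picked from both classes after their values were seen and stand for no group.

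Many windows with H3K9me3 also lay in regions of H3K27me3, the mark of Polycomb repression, in libraries of their own. Of the windows covered by H3K9me3 in all 5 libraries, 243 of 408 (59.6%) had H3K27me3 over at least 50% of the window in all 3 PC libraries and 242 (59.3%) in both HC libraries. The shares were 68.9% and 69.7% of the 119 PC-only windows, and 31.3% and 35.4% of the 48 HC-only windows. Of the 16048 windows covered in no library the shares were 3.69% and 5.63%, and of all windows 10.9% and 12.9%. Of the 3461 windows covered in other combinations of libraries they were 36.4% and 38.9%. For the PC-only windows the shares of 68.9% and 69.7% are 82 windows in PC and 83 in HC. H3K27me3 shares of classes formed without a single library were not computed. H3K4me3, the mark of promoters, covered 42.0% of the PC-only windows in all PC libraries and 45.4% in both HC libraries, against 56.0% and 57.7% of all windows. H3K9ac, an acetylation of active promoters, covered 10.1% and 15.1% of them, against 45.3% and 46.7%. Whether H3K9me3 and H3K27me3 sat on the same chromosomes or in the same cells was not tested.

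**Figure D1:**
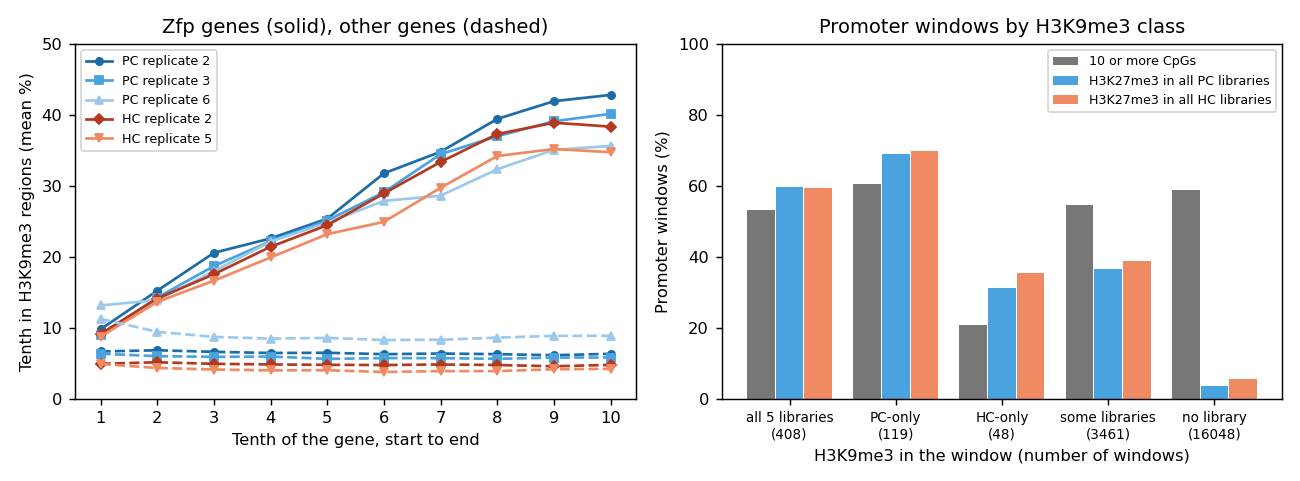
Left, mean percent of each 10% of the gene in H3K9me3 regions, from the start to the end of the gene, for 292 Zfp genes (solid) and 11035 other genes (dashed), 1 line per library. Right, percent of promoter windows with 10 or more CG and with H3K27me3 in all PC or all HC libraries, by H3K9me3 class; Zfp lines rise to between 34.7% and 42.8% in the last 10%, and windows without H3K9me3 have H3K27me3 in 3.69% and 5.63%.

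The lists differed in how finely the mark was cut up. Starts of all regions fell on a grid of 800 bp. PC replicate 2 had 81980 autosomal regions, PC replicate 3 had 70336 and PC replicate 6 had 140614, whereas HC replicate 2 had 65275 and HC replicate 5 had 43180. All 3 PC libraries exceeded both HC libraries, but the difference of -43416 regions was within what a relabelling of the libraries gives (two-sided exact permutation p = 0.2, where 0.1 is the smallest p for 3 against 2 libraries), and without PC replicate 6 it was -21930. Mean region width was 2592, 2510 and 1552 bp in PC replicates 2, 3 and 6 and 3104 and 2857 bp in HC replicates 2 and 5, so that both HC libraries had wider regions than each PC library (difference 762 bp, exact permutation p = 0.2; 429 bp without PC replicate 6). PC replicate 6 stood apart with 57.3% of its regions only 800 bp wide, against 34.5% and 35.1% in the other PC libraries and 25.1% and 27.2% in HC. Of its covered length, 4.49% lay in regions of at least 10 kb, against 17.9% and 15.8% in the other PC libraries and 17% and 12.9% in HC replicates 2 and 5. The sequencing depth behind the lists is unknown.

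The total covered length did not separate the cell types. It was 212.5, 176.6 and 218.3 Mb in PC replicates 2, 3 and 6 and 202.6 and 123.4 Mb in HC replicates 2 and 5, or 8.42% ± 0.940 (SD, n = 3) of the autosomes in PC and 6.78% ± 2.33 (n = 2) in HC (exact permutation p = 0.4). HC replicate 5 was the lowest, and without it HC exceeded PC by 0.197 Mb.

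**Figure D2:**
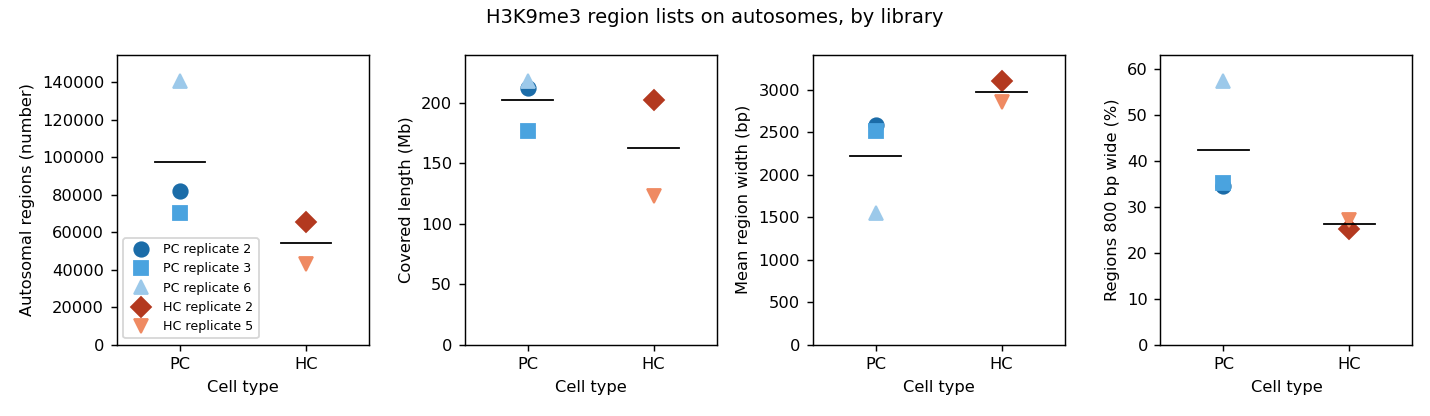
Number of autosomal H3K9me3 regions, covered length (Mb), mean region width (bp) and percent of regions 800 bp wide in each library, with a line at the mean of 3 PC and 2 HC libraries. PC replicate 6 has the most regions (140614) and the narrowest ones (mean 1552 bp), and HC replicate 5 the fewest regions (43180).

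Libraries of one cell type could not be told from libraries of different cell types by their overlap. The Jaccard index, the shared length over the length covered by either library, was 0.329 for PC replicates 2 and 3, 0.225 for each of them with PC replicate 6, and 0.309 for HC replicates 2 and 5. Between cell types it ran from 0.184 to 0.314, the highest being PC replicate 2 with HC replicate 2. The mean within cell types exceeded the mean between them by 0.0190 (one-sided exact permutation p = 0.4). The 5 libraries together covered 510.7 Mb, of which 30.9 Mb (6.05%) was common to all, 42.0% was covered in 1 PC library alone and 17.1% in 1 HC library alone. A length of 8.72 Mb was covered in all PC and no HC libraries and 10.4 Mb in both HC and no PC libraries.

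The submitters' intersected list held 20435 autosomal regions and 63.7 Mb for PC and 16669 regions and 90.8 Mb for HC. At least 1 base was shared with the other list by 9266 PC regions (45.3%) and 7190 HC regions (43.1%). In length, the 42.5 Mb in both lists made up 66.7% of the PC list and 46.8% of the HC list. The PC list rests on 3 libraries and the HC list on 2, and between 90.2% and 95.5% of each list lay within each library behind it. Of the PC list, 76.9% also lay in regions of HC replicate 2 and 64.9% in regions of HC replicate 5. Of the HC list, 73.1%, 67.2% and 52.0% lay in regions of PC replicates 2, 3 and 6.

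Chromosome 11, one of the autosomes richest in genes, took a smaller share of the mark in HC. It held 3.87%, 3.28% and 3.57% of the autosomal covered length in PC replicates 2, 3 and 6 and 2.21% and 1.66% in HC replicates 2 and 5. The groups did not overlap, and the share differed by -1.64 percentage points with a standard error of 0.424 (limma adjusted p = 0.0053 over 19 autosomes). The call held without each PC library in turn (limma adjusted p between 0.0046 and 0.0386). Without HC replicate 2 the difference was -1.92 points and without HC replicate 5 it was -1.36 points, each with 1 HC library left. Chromosome 16 held 3.43%, 3.49% and 4.48% in PC and 2.07% and 2.43% in HC, again without overlap (difference -1.55 points, standard error 0.497, limma adjusted p = 0.0272), and lost the call without any 1 PC library (adjusted p = 0.0711 to 0.0814) and at equal covered length (0.0629). These 2 were the calls among 19 autosomes (10.5%), and 0 autosomes had a higher share in HC. By their length, chromosomes 11 and 16 make up 4.95% and 3.95% of the autosomes.

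Chromosome 7 was the most richly covered in 4 of the 5 libraries relative to its length. Regions covered 14.6%, 13.1% and 12% of it in PC replicates 2, 3 and 6 and 12.9% and 10.9% in HC replicates 2 and 5. It carries many zinc finger, vomeronasal and olfactory receptor genes. In HC replicate 2 chromosomes 1 and 15 were higher still. Chromosome 15 was covered to 15.3% there, against 7.76%, 5.93% and 8.02% in PC and 4.59% in HC replicate 5. That library also had 13.1% of its covered length on chromosome 1, where the other 4 had between 6.94% and 9.37%, and 7.60% on chromosome 15, where they had between 3.39% and 3.76%. Shares of chromosomes 1 and 15 were not called with both HC libraries (limma adjusted p = 0.324 and 0.107), and both were called when HC replicate 5 was left out (0.0164 and 2.1e-07).

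**Figure D3:**
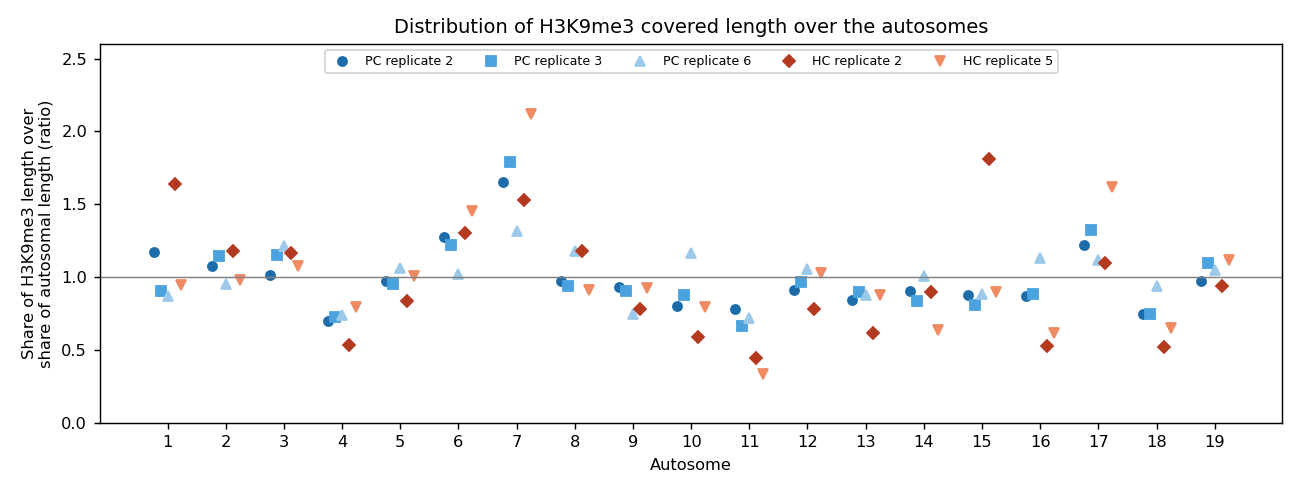
Share of the H3K9me3 covered length on each autosome divided by the share of that autosome in the autosomal length, 1 point per library, with a line at 1. Both HC libraries lie below all PC libraries on chromosomes 11 and 16, and HC replicate 2 lies above all others on chromosomes 1 and 15.

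H3K9me3 was highest in windows without genes in PC replicate 2 and HC replicate 2, and in the most gene-dense windows in PC replicates 3 and 6 and HC replicate 5. In 1 Mb windows with 0 protein-coding genes the mean coverage was 11.9%, 8.40% and 7.99% in PC replicates 2, 3 and 6 and 15.2% and 5.72% in HC replicates 2 and 5. It was lower in windows with 1 to 4 genes, at 7.59%, 5.96%, 7.51%, 7.95% and 3.96% in the same order. In windows with 5 to 9 genes it was 8.22%, 7.10%, 9.36%, 6.94% and 4.90%, and with 10 to 19 genes 8.80%, 7.88%, 10.3%, 7.37% and 5.75%. In windows with 20 or more genes it was 11.4%, 9.91%, 11.4%, 9.82% and 7.32%. Each library thus had its lowest mean among windows with 1 to 4 genes, apart from HC replicate 2, whose lowest mean of 6.94% lay in windows with 5 to 9 genes. The ratio of windows with 0 genes to those with 20 or more was 0.865 ± 0.173 (SD, n = 3) in PC and 1.55 and 0.782 in the 2 HC libraries (exact permutation p = 0.5).

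HC replicate 2 differed most from the other libraries on chromosomes 1 and 15 in windows without genes. On chromosome 1 its mean over windows with 0 genes was 32.2%, against 20.6%, 11.7%, 9.20% and 9.47% in PC replicates 2, 3, 6 and HC replicate 5, and 6.29% over windows with 20 or more genes. On chromosome 15 it was 32.2% against 12.8%, 7.76%, 7.76% and 5.72%, and over windows with 20 or more genes 10.4% against 7.47%, 6.84%, 10.44% and 5.65%. On the other autosomes its mean over windows with 0 genes was 12.3% against 10.8%, 8.03%, 7.85% and 5.26%.

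**Figure D4:**
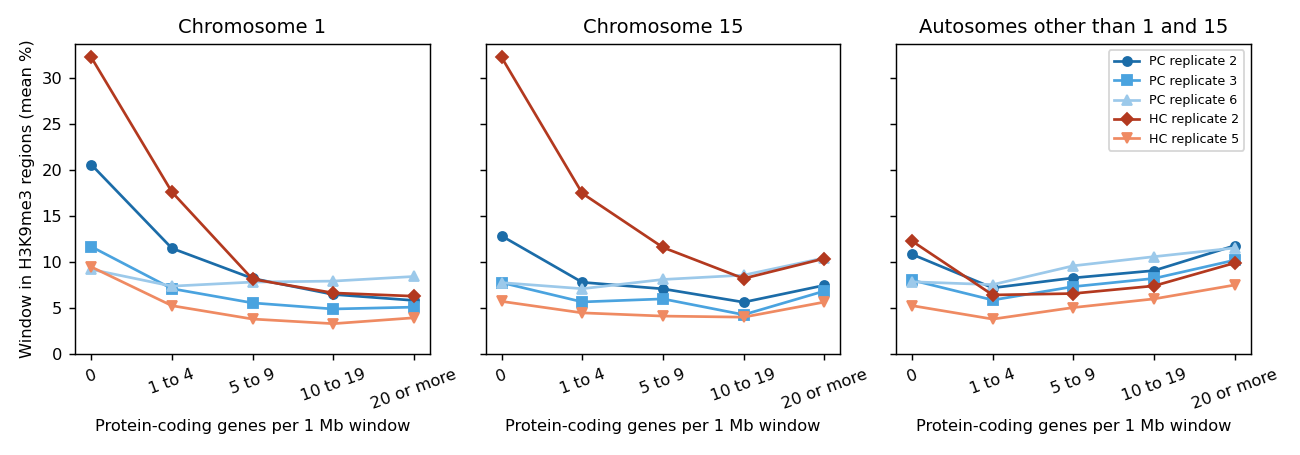
Mean percent of 1 Mb windows in H3K9me3 regions by the number of protein-coding genes in the window, for chromosome 1, chromosome 15 and the other autosomes, 1 line per library. HC replicate 2 reaches 32.2% in windows without genes on both chromosomes, while HC replicate 5 stays at 9.47% and 5.72%.

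Stretches of at least 1 Mb between neighbouring protein-coding genes numbered 258 and spanned 474.1 Mb. Their coverage relative to that of all autosomes was 1.16, 0.991 and 0.815 in PC replicates 2, 3 and 6 and 1.46 and 0.962 in HC replicates 2 and 5, with overlapping groups (exact permutation p = 0.5). Without HC replicate 2 the difference of 0.224 became -0.0257. Of the 258 stretches, 68 (26.4%) had every PC library above every HC library and 1 (0.388%) the reverse. Among the 22592 windows of 100 kb covered in at least 2 libraries the shares were 25.6% and 2.54%. The 26.4% is thus near the share of all windows. By limma, on covered percent not divided by library coverage, 2 stretches (0.775%) fell in HC and 0 rose. The first, between Eno1b and Dtwd2 (chromosome 18, 48048380 to 49696144), had 8.63%, 6.51% and 9.95% in PC and 1.75% and 1.17% in HC (adjusted p = 0.0470). The second, between Gdf6, a growth factor of joints, and 2610301B20Rik (chromosome 4, 9862346 to 10874043), had 4.51%, 2.14% and 3.72% in PC and 0.554% and 0% in HC (adjusted p = 0.0470). The number called lower was 0 without PC replicate 2 or HC replicate 2 and 5 without PC replicate 3, and 26 stretches were called higher without HC replicate 5. The greatest differences the other way were Cntnap5a to B020011L13Rik on chromosome 1, with 40.9%, 28.3% and 16.7% in PC and 59.5% and 29.0% in HC, and Dsel to Cntnap5a beside it, with 29.2%, 14.7% and 10.4% in PC and 46.5% and 14.5% in HC. Cntnap5a codes for a neuronal adhesion protein, and in both stretches HC replicate 5 lay within the PC range.

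In windows of 100 kb, 0 of 22592 were called in either direction (limma, Benjamini-Hochberg), while 1165 (5.16%) were lower in HC and 225 (0.996%) higher at an unadjusted p under 0.05. The window with the greatest difference downward, on chromosome 12 from 103800001 to 103900000 with Serpina1a and Serpina1c, alpha-1-antitrypsin genes of liver, had 32.8%, 27.2% and 37.6% in PC and 0% and 5.60% in HC (adjusted p = 0.55). Without HC replicate 5, 569 windows were called higher in HC replicate 2, of which 191 (33.6%) were on chromosome 1 and 182 (32%) on chromosome 15.

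Clusters of at least 6 genes of 1 family, with neighbours at most 200 kb apart, numbered 161 with 2514 genes over 91.9 Mb. Mean coverage over the clusters was 31.0%, 26.7% and 19.5% in PC replicates 2, 3 and 6 and 30.3% and 21.3% in HC replicates 2 and 5, with overlapping groups. By limma 0 of 161 were called, with 8 lower (4.97%) and 0 higher at an unadjusted p under 0.05. The groups did not overlap in 30 clusters (18.6%), and in 5 of them (3.11% of all) HC was the higher. In 19 clusters at least 50% was covered in all 5 libraries. Among these 19 were 7 vomeronasal receptor clusters, 3 protocadherin clusters, 2 secretoglobin clusters, HoxD and single clusters of Skint, Cyp, Tas2r, Sult, Mrgprb and olfactory receptor genes.

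The Hox clusters, which hold the homeobox genes that pattern the body axis and limbs, supplied 3 of the 5 clusters with HC above PC. HoxD (chromosome 2, 74668225 to 74765142) was covered to 65.8%, 73.2% and 67.0% in PC and 84.3% and 85.6% in HC. HoxA (chromosome 6, 52155367 to 52260880) was covered to 26.5%, 30.2% and 35.0% in PC and 38.7% and 44.8% in HC. HoxC (chromosome 15, 102921131 to 103036856) had 52.3%, 40.8% and 46.7% in PC and 52.9% and 56.4% in HC, and the groups were separated by less than 1 point. HoxB (chromosome 11, 96194316 to 96368254) had 24.9%, 20.7% and 33.2% in PC and 36.8% and 30.4% in HC, and here the groups overlapped. The limma adjusted p-values were between 0.905 and 0.941, so the 4 differences of 16.3, 11.2, 8.09 and 7.36 points were not distinguished from the spread. Their direction was the same without any 1 library, after division by library coverage, with covered length made equal and on a log2 scale. These runs reuse the same libraries, so the kept direction gives the differences no separate support.

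Within the clusters, most genes of the 5′ end were covered in all libraries and those toward the 3′ end varied more. The 16 Hox genes of paralog groups 9 to 13 averaged 78.3%, 78.0% and 80.6% in PC and 82.1% and 82.8% in HC, and 13 of them were at 25% or more in all 5 libraries. The exceptions were Hoxa9, Hoxb9 and Hoxc9. The 23 genes of groups 1 to 8 averaged 19.2%, 20.8% and 33.5% in PC and 44.3% and 37.9% in HC, and 5 were at 25% or more in all. These were Hoxb1 and the HoxD genes Hoxd1, Hoxd3, Hoxd4 and Hoxd8, so in HoxD the 3′ genes were covered in all libraries too. Hoxa4 and Hoxb2 were at 0% in every library. Hoxc11 and Hoxc12 were covered in full in every library. Hoxb7 had 0%, 0% and 12.3% in PC and 100% and 82.5% in HC. Hoxb8 had 0%, 37.1% and 37.1% in PC and 100% and 91.1% in HC. Hoxa2 had 0% in each PC library and 100% and 66.9% in HC. The reverse was seen at Hoxb1, with 89.9% in each PC library and 58% and 26.1% in HC. None of these genes passed limma (adjusted p = 0.37 for Hoxb7 and 0.529 for Hoxb8). Of the 39 Hox genes, 9 had both HC libraries above all PC libraries and 3 the reverse, beside 1.2% and 11.6% of all 20661 genes; this split by paralog group was made after the values were seen.

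The same clusters lay largely in H3K27me3 regions, in libraries of that mark. It covered HoxA to 61.3%, 73.5% and 63.6% in PC and 100% and 97.7% in HC. It covered HoxB to 88.0%, 82.5% and 77.5% in PC and 99.1% and 96.8% in HC. Over HoxD and HoxC it was at 98.3% or more in all 5 libraries. Less H3K36me3, a mark of transcribed gene bodies, lay over HoxB in HC, with 19.8%, 20.8% and 28.5% in PC and 0% and 6.4% in HC. The part of either mark in the H3K9me3 values was not tested.

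Averaged over the zinc finger clusters, the groups overlapped. The 12 Zfp clusters averaged 30.2%, 29.1% and 24.4% in PC replicates 2, 3 and 6 and 26.8% and 26.4% in HC. The means of single clusters ranged from 8.84% to 38.1% in PC and from 2.93% to 40.5% in HC. The highest in HC, 8 genes on chromosome 7 that include Zfp850 and Zfp780b, had 40.3%, 35.8% and 38.2% in PC and 38.6% and 42.4% in HC. The groups did not overlap in 3 of the 12, each with PC the higher, beside 25 of all 161 clusters with PC the higher. The widest difference was that of a cluster of 8 genes on chromosome 7 with Zfp747 and Zfp629, with 9.62%, 8.99% and 9.41% in PC and 0.627% and 5.23% in HC (limma adjusted p = 0.716). Of 388 autosomal Zfp genes, which code for DNA-binding proteins many of which recruit H3K9 methylation to transposons, 104 (26.8%) had at least 25% of the body covered in all 5 libraries, against 4.08% of all genes.

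Coverage climbed along Zfp genes from start to end. Over 292 Zfp genes of at least 8 kb, the first 10% of the gene was covered to 9.78%, 8.96% and 13.1% in PC and 9.13% and 8.75% in HC. The last 10%, where the finger exons commonly lie, was covered to 42.8%, 40.1% and 35.6% in PC and 38.3% and 34.7% in HC. The ratio of last to first was 4.38, 4.48 and 2.71 in PC and 4.20 and 3.97 in HC, with overlapping groups (exact permutation p = 1). Over 11035 other genes of that length the ratio was 0.885 ± 0.0852 (SD, n = 3) in PC and 0.913 ± 0.0761 (n = 2) in HC, below 1 in every library.

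Protocadherin clusters, whose isoforms give neurons their surface identity, were the most fully covered family. The beta cluster (22 genes, chromosome 18, 37264998 to 37521419) had 88.1%, 86.4% and 70.4% in PC and 88.1% and 66.6% in HC. Of 57 protocadherin cluster genes, 48 (84.2%) were at 25% or more in all 5 libraries. Their median length was 90252 bp while the 4 clusters span 0.857 Mb, so many of these gene bodies overlap and share covered bases. Over the beta cluster H3K36me3 was at 0% in all PC libraries and at most 1.9% in HC, whereas over the gamma A cluster it was between 82.2% and 93.3%, with H3K9me3 between 63.0% and 69.6%. Reads of near-identical members may have been shared among them, so single genes of these families are uncertain.

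Over olfactory and vomeronasal receptor clusters the groups overlapped and libraries of one cell type lay far apart. The 32 olfactory receptor clusters averaged 33.7%, 26.6% and 16% in PC and 33.7% and 18.2% in HC. The 17 vomeronasal clusters averaged 40.5%, 37.6% and 26.5% in PC and 40.0% and 32.4% in HC. In both families PC replicate 6 was the lowest and the 2 libraries numbered 2 were the highest or within 1 point of it. The widest difference was that of 30 olfactory receptor genes on chromosome 11, with 78.4%, 69.4% and 39.6% in PC and 67.6% and 26.5% in HC, with overlapping groups (limma adjusted p = 0.937). Among clusters with no overlap, the seminal vesicle genes of the Svs cluster had 6.50%, 12.2% and 9.75% in PC and 0.812% and 2.44% in HC, and the Serpina cluster of protease inhibitors had 10.6%, 9.53% and 15.8% in PC and 3.51% and 5.72% in HC (limma adjusted p = 0.716 for both).

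**Figure D5:**
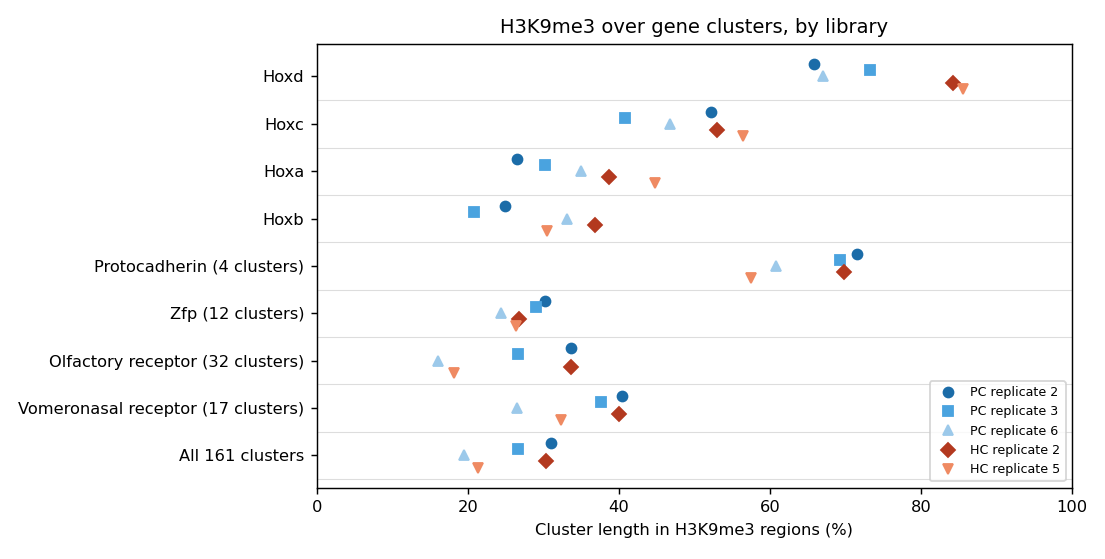
Percent of the length in H3K9me3 regions for the 4 Hox clusters and, weighted by length, for families of gene clusters, 1 point per library. Both HC libraries exceed all PC libraries at HoxD, HoxC and HoxA, whereas for all 161 clusters the groups overlap, from 19.5% to 31.0%.

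Over gene bodies, 9999 of 20661 genes had coverage in at least 2 libraries and were tested, and 0 were called in either direction by limma. At an unadjusted p under 0.05, 602 (6.02%) were lower in HC and 97 (0.970%) higher. The median difference of the tested genes was -3.16 percentage points, or -0.265 after dividing by the covered percent of each library. The number of calls depended on PC replicate 6 and on the scale: on log2(covered percent + 1) all 5 libraries gave 94 genes called lower and 23 higher. Without PC replicate 6, with fewer genes tested, 326 of 7757 genes (4.20%) were called lower in HC and 48 (0.619%) higher, and the median difference of the genes called lower was -6.30 points. Outside the Hox, olfactory, vomeronasal, protocadherin and Zfp families, 295 of 6935 tested genes (4.25%) were called lower and 31 (0.447%) higher. The share called lower there was near that of all tested genes.

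Genes were also called marked when at least 25% of the body was covered. This held for 2017, 1888 and 2340 genes in PC replicates 2, 3 and 6 and for 1783 and 1582 in HC replicates 2 and 5, and for 843 in all 5. Marked in all PC and no HC libraries were 85 genes (0.411%), and 44 (0.213%) in both HC and no PC libraries. Of the 85, 14 were shorter than 1500 bp and 51 were at least 5 kb long. Of the 44, 17 were shorter than 1500 bp, and 12 were olfactory receptor genes, against 8 of the 85 and 1104 of all 20661 genes. At equal covered length there were 45 PC-only and 49 HC-only genes, so the excess of PC-only genes was not seen there. A region of 800 bp can fill most of such a short gene, and reads of its paralogs may be exchanged.

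The PC-only genes with the widest difference were Gm10272, Mt2, Olfr1388, Olfr609, Olfr738, Olfr490, Olfr476, Olfr385, Cldn7 and Mt1. Mt2 and Mt1 are neighbouring metallothionein genes on chromosome 8. Mt2 (94172618 to 94173567) had 100% in each PC library and 0% in both HC libraries. Mt1 (94178883 to 94180327) had 100%, 100% and 78.0% in PC and 0% and 22.6% in HC. Cldn7 (chromosome 11, 69964779 to 69967886) had 99.3%, 99.3% and 52.2% in PC and 0% in both HC libraries. Among longer genes, Hic1 had 52.4%, 61.4% and 82.0% in PC, Plk2, a polo-like kinase, had 55.2%, 55.2% and 55.9%, and Sost, which codes for the bone Wnt antagonist sclerostin, had 51.4%, 51.4% and 52.7%, each with 0% in HC. These last 3 were chosen after their values were seen.

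The HC-only genes with the widest difference were Olfr1246, Olfr1305, Olfr502, Olfr600, Olfr644, Olfr714, Vmn1r49, Zdhhc25, Olfr107 and Prm1. The first 8 had 0% in each PC library and 100% in both HC libraries. Zdhhc25, which codes for a palmitoyltransferase family member, lies on chromosome 15 (88600302 to 88601669). Prm1, the protamine of sperm chromatin (chromosome 16, 10796332 to 10796823), had 0% in PC and 95.3% in both HC libraries. The labels do not describe the transgene constructs, and whether any of their sequence matches this gene was not tested. For all 20 genes named by this rule the limma adjusted p lay above 0.05 with all 5 libraries. Without PC replicate 6, 19 of the 20 passed, with Mt1 the exception. The 20 were picked by their difference in these same libraries, so this number gives them no separate support.

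Col10a1 (chromosome 10, 34389981 to 34397085) had 0%, 0% and 11.3% in PC and 51.0% in both HC libraries (limma adjusted p = 0.529). Around it, in 5 windows of 50 kb (34200001 to 34450000) that also hold parts of Dse, Tspyl1, Tspyl4 and Nt5dc1, H3K9me3 averaged 7.04%, 4.16% and 9.28% in PC and 16.3% and 14.7% in HC. In 2 of the 5 windows the groups overlapped: the first had 0%, 3.2% and 9.6% in PC and 3.2% and 4.8% in HC, and the third had 14.4%, 14.4% and 12.8% in PC and 14.4% in both HC libraries. In the window after the 5, with Frk, H3K9me3 was 28.8%, 20.8% and 12.8% in PC and 12.8% and 0% in HC. H3K27me3 averaged 0.960%, 0% and 0% in PC and 26.2% and 21.4% in HC over these windows, and 0% in both HC libraries in the window before them. H3K27ac, a mark of active enhancers and promoters, averaged 8.08%, 6.72% and 10.9% in PC and 14.1% and 19% in HC. The HC line carries a transgene with Col10a1 sequences, so regions of the endogenous locus and of transgene copies cannot be told apart. Tspyl1, in the same stretch, had 0% in PC and 32.8% and 29.7% in HC.

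Of all 20661 genes, 16955 were marked in no library, and most lists of marker genes lay near that share. Of 19 cartilage genes, 15 were marked in no library and 1 in all 5. That gene was Comp, which codes for cartilage oligomeric matrix protein, with 57.0%, 57.0% and 85.1% in PC and 47.0% and 75.7% in HC. Col2a1, the type II collagen gene, had 16.2%, 13.47% and 35.4% in PC and 11% and 13.7% in HC, and the PC line carries a transgene with its sequences. Acan, the aggrecan gene, and Sox9, the master factor of chondrocytes, had regions only in PC replicate 6, over 10.9% and 28.8%. Of 14 hypertrophic genes, 12 were marked in no library, again near the share of all genes. Runx2, a driver of hypertrophy, had at most 7.8% and Ihh, its Hedgehog ligand, at most 4.5% in any library. Sp7, a factor of osteoblasts, had 67.4% in HC replicate 2 and 0% elsewhere.

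Other lists were counted in the same way and were not tested against each other. Of 14 autosomal housekeeping genes 12 were marked in no library, which is near the share of all genes, and 10 were at 0% in all 5. The exceptions were Tbp, the TATA-binding protein gene, with 36.5%, 13.7% and 41.0% in PC and 9.1% and 0% in HC, and Eef2, an elongation factor gene, with 68.0% in PC replicate 6 alone. Of 11 imprinted and germline genes with known H3K9me3, 4 were marked in all 5 libraries, against 4.08% of all genes. They were the imprinted genes Peg10, Mest, Peg3 and Snrpn, which ranged from 30.8% to 78.0%. Another 5 of the 11 were marked in no library. These were the germline genes Dazl, Ddx4, Mael, Sycp3 and Asz1, with at most 11.4% in any library. Of the genes of other cell types, 6 of 8 muscle, 5 of 5 endothelial, 5 of 5 blood, 2 of 6 neural and 4 of 6 epidermal genes were marked in no library. Olig2 and Neurod1, factors of neural cells, were marked in all 5, the first at 100% in each. In bulk samples the region lists cannot tell a mark in few cells from a weak mark in all.

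H3K27me3 over the bodies of these genes was tested in libraries of its own. Of the 85 PC-only genes, 59 could be tested for H3K27me3 over the body with 2 kb on each side, and 0 rose and 1 fell in HC. Of the 44 HC-only genes 18 could be tested, and 1 rose and 0 fell, beside 118 that rose (1.85%) and 37 that fell (0.58%) of 6380 genes in all (limma). At an unadjusted p under 0.05, 0 of the PC-only genes were higher and 4 lower, and 1 of the HC-only genes was higher and 1 lower. Of all 6380 tested genes, 604 were higher and 337 lower at that threshold. By length, the PC intersected list of H3K9me3 lay to 13.4% in H3K27me3 and to 20.4% in H3K36me3 regions common to the PC libraries, and the HC list to 10.4% and 14.2%, where H3K27me3 covered 1.36% and 1.94% of the autosomes and H3K36me3 11.7% and 13.4%.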

How the data were processed

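Chondrocytes were sorted by fluorescence and H3K9me3 was immunoprecipitated and sequenced with low-input kits, per the labels' protocols. The authors deposited region coordinates (chromosome, start and end) with no score, and no read count or depth came with them. FastQC, Picard and the build mm10 are named per the submitters' processing notes. The 11 IgG samples were not analysed here. The aligner, the region caller and the use of any IgG control were not given in the sources used here. Regions on X and Y were left out. Covered percent of each feature was computed with Python 3.11.15 and numpy 2.4.6; genes came from RefSeq GRCm38.p6. Tests across features used limma 3.58.1 in R 4.3.3 (trend, robust, Benjamini-Hochberg, adjusted p under 0.05). Gene bodies and 100 kb windows were tested where covered in at least 2 libraries. Clusters, autosome shares and gene-poor stretches were tested without this filter. Single values used the exact permutation over libraries. The limma step was tested on simulated data with normal noise of equal spread, and the permutation step on a fixed made-up set of values. Named genes were the 10 per direction with the greatest difference among genes marked in all libraries of 1 cell type and none of the other, with Col2a1, Col10a1, Acan, Sox9, Runx2, Ihh and Prm1 the leading members of described clusters and, from the 5 clusters, windows and stretches per direction with the greatest difference, those described. The members and lists were chosen with earlier results of these data known. Promoter windows, the Col10a1 stretch, gene density classes and the limma test over gene-poor stretches were added after seeing the data.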

Additional observations from a re-analysis of the deposited data

How the results depend on the processing

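No paired analysis was possible because PC and HC share only the replicate number 2. Gene body calls, 0 in each direction, became 23 higher and 94 lower in HC on log2(covered percent + 1) and 1 higher and 2 lower with no filter, and ranged from 0 to 48 higher and from 0 to 326 lower as 1 library was left out. Calls among 100 kb windows then ranged from 0 to 569 higher and from 0 to 2 lower, among autosome shares from 0 to 2 higher and from 1 to 3 lower, and among gene-poor stretches from 0 to 26 higher and from 0 to 5 lower; where 1 HC library was left out, the lone sample is assumed to vary like the others. Chromosome 11 was the 1 autosome called at equal covered length. PC-only genes, 85, were 41 at 50% of the body, 1179 at any overlap, 45 at equal covered length, 53 with regions of at least 2400 bp and 51 among genes of at least 5 kb; HC-only genes, 44, were 49 at equal covered length, 46 with regions of at least 2400 bp and 19 among those of at least 5 kb. Leaving out 1 library gave 167 to 185 PC-only and 58 to 269 HC-only genes, and 192 to 266 PC-only and 75 to 224 HC-only promoter windows, since fewer libraries then had to agree. The covered length difference ranged from -79.1 to 0.197 Mb and the gene-poor enrichment difference from -0.0257 to 0.474. Overlap of at least 50% of the region was found for 43.0% of PC and 28.6% of HC regions. Overlap of at least 1 base, with intersections rebuilt base by base, was found for 51.8% of PC regions, and with PC replicates 2 and 3, 2 and 6 or 3 and 6 alone 39.5%, 36% and 38.8% of PC and 58.1%, 50.4% and 48.1% of HC regions. The cause of these changes was not tested. Gene cluster calls were 0 under every alternative run, and region number and mean width kept their direction. The unknown depth limits every list.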
